A study of Mus musculus with 7 samples.

Results

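The 10 genes described here are recurrently mutated in human myelodysplastic syndrome (MDS), a disorder of ineffective blood formation: Dnmt3a, Idh1, Idh2, Tet2, Asxl1, Stag2, Rad21, Smc3, Ptpn11 and Nf1. Their transcripts were followed in mouse bone marrow with Affymetrix Mouse430_2 arrays. A probe set counted as a member when the platform annotation gave it exactly 1 symbol and that symbol was one of these, which gave 22 of 16255 probe sets and 10 of 8378 genes. All 10 genes were measured, with 5 probe sets for Dnmt3a, 3 for Rad21, 2 each for Idh1, Idh2, Tet2, Asxl1, Stag2 and Smc3, and 1 each for Ptpn11 and Nf1. The endogenous mouse transcripts were measured, and the labels name none of the 10 genes as altered in these mice. All 7 arrays came from recipients of a bone marrow transplant. The mock group (3 arrays) received marrow with a control transgene, and the ABCG2 group (2 arrays) received marrow with an ABCG2 transgene, both used as whole, unsorted marrow. EZH2-Mt marrow came from recipients described as MDS-like and was sorted on green fluorescent protein (GFP) into a GFP-positive and a GFP-negative fraction, with 1 array each. ABCG2 pumps drugs and dyes out of stem cells, and EZH2 places the repressive methyl mark of the Polycomb system on histones. The sources used here do not give the vector, the change in EZH2-Mt, strain, age, time after transplant or the host cells left in each recipient. Since no mouse carries a number in the labels, the spread behind each p-value is that between arrays, and whether both fractions came from 1 mouse is unknown.

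Dnmt3a adds methyl groups to unmethylated cytosines, and Tet2 oxidises methylcytosine on the way to its removal. Idh1 (cytosol) and Idh2 (mitochondria) make alpha-ketoglutarate, the cofactor of the TET enzymes, and their mutant forms in MDS and leukaemia make 2-hydroxyglutarate, which inhibits TET enzymes. Smc3, Rad21 and Stag2 are parts of cohesin, a ring that holds sister chromatids together and shapes chromatin loops. Asxl1 is a chromatin protein that activates the histone deubiquitinase BAP1. Ptpn11 encodes the phosphatase SHP2, which promotes Ras signalling, while Nf1 encodes neurofibromin, which switches Ras off. In blood-forming cells, loss of Dnmt3a or Tet2 is known to favour stem cell self-renewal.

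Promoters are shown for the genes that rose or fell in ABCG2 marrow and have an entry in the RefSeq table (GRCm38.p6), since the text returns to what these genes shared. Each is the 250 bases before an annotated start, written 5′ to 3′ on the gene's strand. Capitals mark matches on either strand to 5 motifs, which do not overlap one another in these windows: the GC box GGGCGG, the CCAAT box, the E-box CACGTG, the cyclic AMP response element TGACGTCA and the ETS core CCGGAAG. The windows are chr12:3806730-3806979 (plus strand) and chr12:3891494-3891743 (plus) for Dnmt3a, chr1:65186480-65186729 (minus) and chr1:65179143-65179392 (minus) for Idh1, chr7:80115351-80115600 (minus) for Idh2 and chr5:121191398-121191647 (minus) for Ptpn11.
Dnmt3a, first start: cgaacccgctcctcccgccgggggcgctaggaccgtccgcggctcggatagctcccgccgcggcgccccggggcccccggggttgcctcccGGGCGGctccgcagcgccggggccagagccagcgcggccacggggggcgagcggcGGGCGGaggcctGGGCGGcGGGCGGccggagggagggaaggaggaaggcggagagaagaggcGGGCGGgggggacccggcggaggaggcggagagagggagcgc
Dnmt3a, later start: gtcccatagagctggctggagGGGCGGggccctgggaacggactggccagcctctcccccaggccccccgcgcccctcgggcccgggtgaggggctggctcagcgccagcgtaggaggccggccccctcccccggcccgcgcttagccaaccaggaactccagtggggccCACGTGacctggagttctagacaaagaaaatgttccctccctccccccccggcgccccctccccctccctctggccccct
Idh1, first start: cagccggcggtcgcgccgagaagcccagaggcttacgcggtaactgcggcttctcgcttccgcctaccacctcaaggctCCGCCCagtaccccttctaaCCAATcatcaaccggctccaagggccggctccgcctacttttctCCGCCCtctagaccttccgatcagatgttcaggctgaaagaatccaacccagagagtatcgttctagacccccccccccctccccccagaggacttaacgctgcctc
Idh1, later start: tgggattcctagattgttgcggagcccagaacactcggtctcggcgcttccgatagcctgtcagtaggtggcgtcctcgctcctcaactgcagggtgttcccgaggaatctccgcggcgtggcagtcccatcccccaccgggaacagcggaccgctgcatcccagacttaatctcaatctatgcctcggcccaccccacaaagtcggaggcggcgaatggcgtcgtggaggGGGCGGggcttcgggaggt
Idh2: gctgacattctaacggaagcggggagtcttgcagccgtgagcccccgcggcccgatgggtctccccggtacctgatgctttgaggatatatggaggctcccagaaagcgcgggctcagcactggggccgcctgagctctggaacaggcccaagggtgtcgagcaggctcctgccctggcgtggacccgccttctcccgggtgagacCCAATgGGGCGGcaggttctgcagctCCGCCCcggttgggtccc
Ptpn11: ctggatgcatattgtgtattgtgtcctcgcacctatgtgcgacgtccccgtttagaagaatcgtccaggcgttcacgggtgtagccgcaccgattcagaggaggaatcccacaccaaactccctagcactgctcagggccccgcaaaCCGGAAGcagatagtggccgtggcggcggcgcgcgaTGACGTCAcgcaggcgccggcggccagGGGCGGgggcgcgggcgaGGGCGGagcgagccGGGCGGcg
All 6 windows hold a GC box, and so did 10 of the 11 windows found for 8 member genes, against 32.7% of 32851 promoter windows of this length. The windows are not separate, since Dnmt3a has 3, of which a pair overlaps and shares a GC box, and Idh1 has 2; by gene, 7 of 8 held one. CCAAT stood in 2 of the 11 (33.8% of all windows), the ETS core in 3 (6.91%), the E-box in 1 (6.02%) and the cyclic AMP response element in 1 (1.55%). The member windows were 54.4% to 83.6% G and C and held 11 to 51 CpG dinucleotides, against medians of 52.4% and 6 over all windows. The GC box is itself made of G and C and occurs in the windows of Idh1 as in those of Dnmt3a, Idh2 and Ptpn11. A match describes letters only. The set of RefSeq promoter windows used here had no entry for Stag2 and Rad21.

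The deposited values are logs, taken as base 2, and were centred so that each probe set has a median of 0 over the 7 arrays. They show how a gene differs between arrays, not how abundant its transcript is. Levels of different genes are not compared, and the distances between genes given later compare profiles over the arrays. All probe sets kept by the authors had a Present or Marginal call on every array. The 2 ABCG2 arrays stood apart: the SD over probe sets was 1.06 and 1.13 on them, 0.33 to 0.42 for mock, and 0.41 and 0.54 for the GFP-negative and GFP-positive fractions. Abcg2 itself, as the mouse gene, was lower on the arrays labelled ABCG2 (-0.92 and -0.91) than on the mock arrays (0.02, -0.17 and 0.00), and stood at 0.84 and 1.35 in the GFP-negative and GFP-positive fractions. Ezh2 read -0.14 and -0.16 in those fractions, inside the mock range of -0.22 to 0.14. The species of the transgene and the part the probes cover were not given, so this does not check the labels. Spike-in controls of the RNA amplification had medians of -1.04 and -1.49 on the ABCG2 arrays, 0.00 on each mock array, 1.79 on the GFP-negative and 3.50 on the GFP-positive array. The hybridization spike-in bioB had medians of -3.07 and -3.20 on the ABCG2 arrays and -0.03 to 0.00 in mock. The 3' minus 5' difference of the actin controls, a sign of RNA quality, was 0.40 and 0.42 on the ABCG2 arrays and -0.05 to 0.04 in mock. That of Gapdh was -0.08 and -0.11 against -0.08 to 0.10. On the GFP-negative array these differences were 0.14 for actin and 0.09 for Gapdh. On the GFP-positive array they were 0.31 and 0.35, both above the mock range. The part of these control signals in the ABCG2 differences was not tested. The titles of both ABCG2 arrays also carry a tag of unstated meaning that no mock title has, so a batch behind it and the group cannot be told apart. For RNA of mixed cells, fewer cells of a type and less RNA per cell cannot be told apart either.

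In ABCG2 marrow, Dnmt3a, Idh2 and Ptpn11 rose and Idh1, Stag2 and Rad21 fell, while Tet2, Asxl1, Smc3 and Nf1 did not pass the test. The test was limma on all genes with a Benjamini-Hochberg adjusted p below 0.05, each gene being the mean of its probe sets. The 3 of 10 genes that rose stand beside 35.6% of all 8378 genes, and the 3 of 10 that fell beside 26.2%. ABCG2 arrays lay wholly above or wholly below the mock arrays for 7 of the 10 genes, against 76.9% of all genes. Member genes thus changed about as often as genes did in general. Their median absolute difference was 0.65 log2, and that of all genes was 0.65. The median signed difference was 0.02 for the members and 0.15 for all genes. Of the 22 probe sets, 7 rose and 5 fell, against 31.5% and 25.3% of all probe sets, and 14 lay outside the mock range, against 73.2%. Under quantile normalization between arrays, Dnmt3a rose and Idh1 and Stag2 fell, while Idh2, Ptpn11 and Rad21 no longer passed. That method was run on the centred values and gives all arrays the same spread. It narrows the ABCG2 arrays (SD 1.06 and 1.13) and widens the mock arrays (0.33 to 0.42), so calls can be lost through the method itself. The part of the wider ABCG2 spread in the calls made on the deposited values was not tested.

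**Figure D1:**
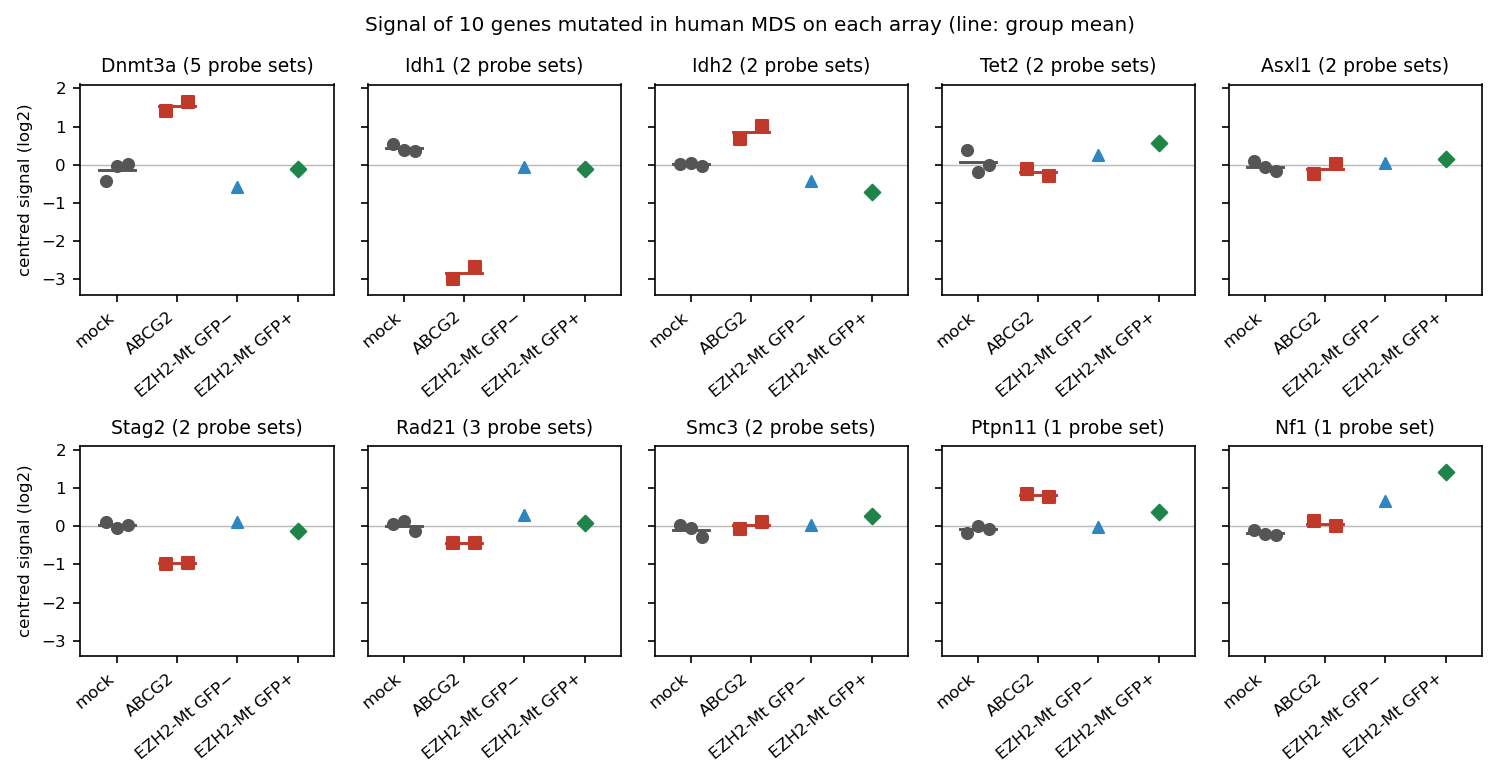
Centred signal (log2, vertical axis) of each of the 10 genes on every array, by group, with lines at the means of the mock (n = 3) and ABCG2 (n = 2) arrays. Idh1 lies at -2.98 and -2.68 on the ABCG2 arrays and at 0.37 or above on the mock arrays, Dnmt3a lies at 1.41 and 1.65 on the ABCG2 arrays, and Nf1 is highest on the GFP-positive array at 1.41.

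Idh1, the cytosolic isocitrate dehydrogenase, showed the largest difference among the members. Its centred signal was 0.53, 0.38 and 0.37 on the mock arrays and -2.98 and -2.68 on the ABCG2 arrays. The GFP-negative array stood at -0.05 and the GFP-positive array at -0.12. Both ABCG2 arrays lay far below every other array. Idh1 fell by 3.26 ± 0.15 log2 (SE of limma, adjusted p = 1.64e-05), a 9.59-fold lower signal, and ranked 212th among falls over 8378 genes. Both of its probe sets fell, with differences of -3.52 ± 0.19 (1422433_s_at) and -3.00 ± 0.15 (1419821_s_at). The suffix _s_at marks probe sets that can match several related transcripts.

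Idh2, the mitochondrial enzyme, went the other way at 1 of its 2 probe sets. As a gene it stood at 0.03, 0.04 and -0.04 in mock and at 0.68 and 1.01 in ABCG2, with no overlap, and rose by 0.84 ± 0.15 (adjusted p = 0.00304, 1.79-fold). Probe set 1450048_a_at read -0.17, 0.08 and 0.00 in mock and 1.49 and 1.55 in ABCG2, a rise of 1.55 ± 0.15 (adjusted p = 0.000333). Probe set 1453601_at read 0.23, 0.00 and -0.08 in mock and -0.13 and 0.48 in ABCG2, so the groups overlapped, with a difference of 0.13 ± 0.22 (adjusted p = 0.642). The gene's rise therefore rested on the first probe set. Under quantile normalization the gene's difference was 0.42 and its adjusted p 0.0927.

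Dnmt3a, a de novo DNA methyltransferase, rose at each of its 5 probe sets, which all derive from 1 sequence record. The gene read -0.43, -0.03 and 0.01 in mock and 1.41 and 1.65 in ABCG2. The sorted EZH2-Mt fractions stood at -0.58 (GFP-negative) and -0.11 (GFP-positive). The ABCG2 arrays were above all other arrays, and the rise was 1.68 ± 0.18 (adjusted p = 0.000431, 3.20-fold), 479th among rises over all genes. By probe set the rise ran from 1.24 ± 0.22 at 1460324_at to 2.30 ± 0.24 at 1423064_at, with 1.34 ± 0.21 at 1423065_at, 1.58 ± 0.18 at 1423066_at and 1.92 ± 0.19 at 1423063_at. Under quantile normalization 1423065_at (0.77, adjusted p = 0.0996) and 1423066_at (0.79, adjusted p = 0.0629) no longer passed.

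Tet2, the dioxygenase that acts on methylcytosine, read 0.38, -0.20 and 0.00 in mock and -0.10 and -0.30 in ABCG2. The groups overlapped, and the difference of -0.26 ± 0.20 did not pass (adjusted p = 0.285). Its probe sets differed by -0.37 ± 0.21 (1438781_at) and -0.15 ± 0.20 (1455300_at), neither past the threshold.

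The wider DNA methylation and 2-hydroxyglutarate list holds 30 genes, of which 23 were measured. In ABCG2 marrow 13 rose, 3 fell and 7 did not pass, with a median difference of 0.55 beside 0.15 over all genes, of which 35.6% rose and 26.2% fell. With 1 array left out in turn 10 to 15 rose, and under quantile normalization 6 rose. Dnmt3b, the other de novo methyltransferase, rose by 2.69 ± 0.18, and Tet1, a relative of Tet2, by 2.53 ± 0.16. Uhrf2, a relative of the maintenance factor Uhrf1 that binds modified cytosines, rose by 1.61 ± 0.13. Of the genes that fell, the stress-inducible Gadd45a had a difference of -3.21 ± 0.24, the methyl-CpG reader Mbd2 -1.14 ± 0.13 and Gadd45b -0.85 ± 0.23. For Gadd45b limma's adjusted p was 0.0175, and 0.0609 without mock array 2 and 0.052 without mock array 3. The maintenance methyltransferase Dnmt1 differed by -0.02 ± 0.15 (adjusted p = 0.939) and was picked out after its value was seen.

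Asxl1 read 0.09, -0.07 and -0.17 in mock and -0.25 and 0.01 in ABCG2. The groups overlapped, and the difference was -0.07 ± 0.15 (adjusted p = 0.694). Its probe sets pointed in opposite directions. Probe set 1434561_at differed by 0.31 ± 0.19 (adjusted p = 0.205). Probe set 1435077_at read 0.13, 0.00 and -0.27 in mock and -0.51 and -0.50 in ABCG2, which do not overlap, yet its difference of -0.46 ± 0.17 missed the threshold (adjusted p = 0.054). Without ABCG2 array 1 the first passed at 0.57 (adjusted p = 0.0431), and without mock array 3 the second passed at -0.57 (adjusted p = 0.0362). Of 9 measured genes listed as BAP1 partners and relatives, 6 rose and 2 fell, beside 35.6% and 26.2% of all genes, with a median of 0.47. Asxl2, the relative of Asxl1, rose by 1.03 ± 0.13, the histone demethylase Kdm1b by 0.89 ± 0.14 and the ubiquitin hydrolase Uchl5, a relative of BAP1, by 0.76 ± 0.13. Mbd6 fell by 0.45 ± 0.12 and the forkhead factor Foxk1 fell by 0.42 ± 0.14. With the replicate number as a block 3 rose and 0 fell, the same as without mock array 2 or mock array 3, and Mbd6 and Foxk1 then had adjusted p-values of 0.0747 and 0.0781 in the block fit. The counts were 3 to 5 up and 0 to 1 down over all arrays left out in turn, and 2 up and 0 down under quantile normalization (4 and 0 at limma's unadjusted p below 0.05).

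Among the cohesin genes, Stag2, the ring's regulatory subunit, fell clearly. It read 0.12, -0.04 and 0.04 in mock and -0.98 and -0.96 in ABCG2, so every ABCG2 value lay below every mock value. The difference was -1.01 ± 0.13 (adjusted p = 0.000762, 2.01-fold lower), and Stag2 stood at 0.10 in the GFP-negative and -0.12 in the GFP-positive fraction. Its probe sets come from the same transcript record but fell by unequal amounts, with differences of -1.47 ± 0.15 at 1450396_at (adjusted p = 0.000403) and -0.54 ± 0.14 at 1421849_at (adjusted p = 0.0149). The latter was -0.34 with an adjusted p of 0.241 under quantile normalization, and -0.52 with an adjusted p of 0.0519 without ABCG2 array 1.

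Rad21, the clasp of the cohesin ring, gave a split result. As a gene it read 0.05, 0.13 and -0.13 in mock and -0.44 on both ABCG2 arrays, and fell by 0.46 ± 0.14 (adjusted p = 0.026). That fall came from 1 of its 3 probe sets. Probe set 1416162_at read 0.27, -0.02 and 0.00 in mock and -1.71 and -1.23 in ABCG2, a difference of -1.56 ± 0.20 (adjusted p = 0.000996). Probe set 1416161_at, from the same sequence record, read -0.11, 0.16 and -0.22 in mock and 0.00 and -0.11 in ABCG2, a difference of 0.01 ± 0.17 (adjusted p = 0.982). The third, 1455938_x_at, differed by 0.18 ± 0.19 (adjusted p = 0.465), and the suffix _x_at marks probes that may bind other transcripts. When the gene was taken as the median of its probe sets, the difference was -0.05 (adjusted p = 0.792). The gene's call was lost in 6 of 12 alternatives, among them leaving out mock array 1 (adjusted p = 0.0607), mock array 2 (0.0923), ABCG2 array 1 (0.0697) or ABCG2 array 2 (0.0729).

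Smc3, an arm of the ring, read 0.03, -0.04 and -0.27 in mock and -0.07 and 0.12 in ABCG2. The groups overlapped and the difference was 0.12 ± 0.15 (adjusted p = 0.524). Its probe sets differed by 0.00 ± 0.16 (1450950_at) and 0.23 ± 0.19 (1450951_at). Of 14 other measured genes of cohesin, its loaders and its regulators, 0 rose, 4 fell and 10 did not pass at limma's adjusted p. The list's median was -0.20, with 0 higher and 4 lower at limma's unadjusted p below 0.05. Beside them, 35.6% of all genes rose and 26.2% fell. Nipbl, which loads cohesin on DNA and is itself mutated in some MDS, had a difference of -1.06 ± 0.16, the acetyltransferase Esco2 -1.04 ± 0.21 and securin (Pttg1) -0.89 ± 0.22. Sororin (Cdca5) fell by 0.40 ± 0.13 (adjusted p = 0.0322). Its adjusted p by limma was 0.17 under quantile normalization, 0.111 without mock array 2 and 0.0662 without mock array 3. It was the smallest fall of the 4 genes that fell. With 1 array left out 3 to 4 of them fell, and under quantile normalization 1 fell. Stag1, the alternative to Stag2 in the ring, differed by -0.30 ± 0.13 (adjusted p = 0.0803) and Smc1a, the partner arm of Smc3, by -0.18 ± 0.13 (adjusted p = 0.264). Both were picked out after their values were seen.

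**Figure D2:**
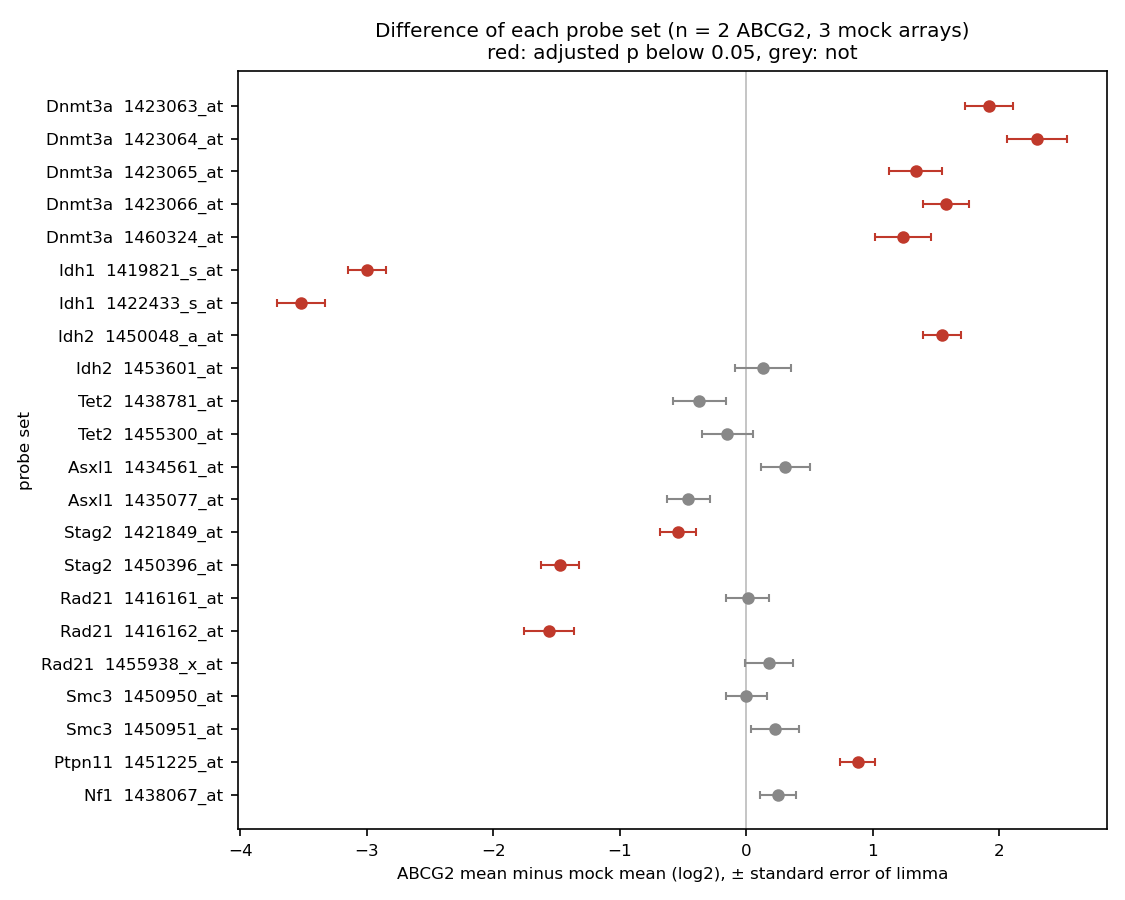
Difference between the ABCG2 (n = 2) and mock (n = 3) means for each of the 22 probe sets (log2, horizontal axis; bars are limma's standard errors), red where the adjusted p was below 0.05. The 5 Dnmt3a and both Idh1 probe sets stand on 1 side each, while only 1 of 3 Rad21 and 1 of 2 Idh2 probe sets are red.

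Ptpn11 (SHP2) was measured by 1 probe set and read -0.17, 0.00 and -0.06 in mock and 0.84 and 0.77 in ABCG2. Both ABCG2 arrays lay above all others, the nearest being the GFP-positive fraction at 0.36. It rose by 0.88 ± 0.13 (adjusted p = 0.00138, 1.84-fold). Under quantile normalization the difference was 0.52 and the adjusted p 0.052. Nf1, which restrains Ras, read -0.10, -0.21 and -0.22 in mock and 0.14 and 0.00 in ABCG2. These values do not overlap, but the difference of 0.25 ± 0.13 did not pass (adjusted p = 0.14).

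Of 31 measured genes of the Ras, SHP2 and MAP kinase list, 7 rose, 13 fell and 11 did not pass, with a median of -0.44. Over all genes 35.6% rose and 26.2% fell, with a median of 0.15. The small GTPase Rras2 rose by 4.54 ± 0.26, the MAP kinase phosphatase Dusp5 by 2.86 ± 0.52 and the ubiquitin ligase Cblb by 1.71 ± 0.30. Among those that fell were the feedback inhibitor Spry2 (-3.14 ± 0.41), the Ras GTPase-activating protein Dab2ip (-1.95 ± 0.14) and the kinase Map2k1 (-1.80 ± 0.19). Both directions thus held activators and restrainers of the pathway. The counts were 6 up and 10 down under quantile normalization.

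Of 24 other measured genes mutated in human MDS, 4 rose, 2 fell and 18 did not pass, with a median of 0.22 beside 0.15 over all genes, of which 35.6% rose and 26.2% fell. The receptor tyrosine kinase Flt3 rose by 2.84 ± 0.32, the nucleolar protein Npm1 by 0.82 ± 0.15 and the corepressor Bcor by 0.72 ± 0.13. The fourth to rise was Ezh2, measured by 1 probe set, by 0.54 ± 0.17 (adjusted p = 0.0315). Under quantile normalization limma's adjusted p for Ezh2 was 0.471, and with array weights 0.0582. It was 0.0784 without mock array 1 and 0.0716 without mock array 3. Without ABCG2 array 2 the difference was 0.38. Nipbl and the ubiquitin ligase Cbl (-0.68 ± 0.13) fell. Under quantile normalization 1 rose and 0 fell by limma's test (3 and 1 at an unadjusted p below 0.05).

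**Figure D3:**
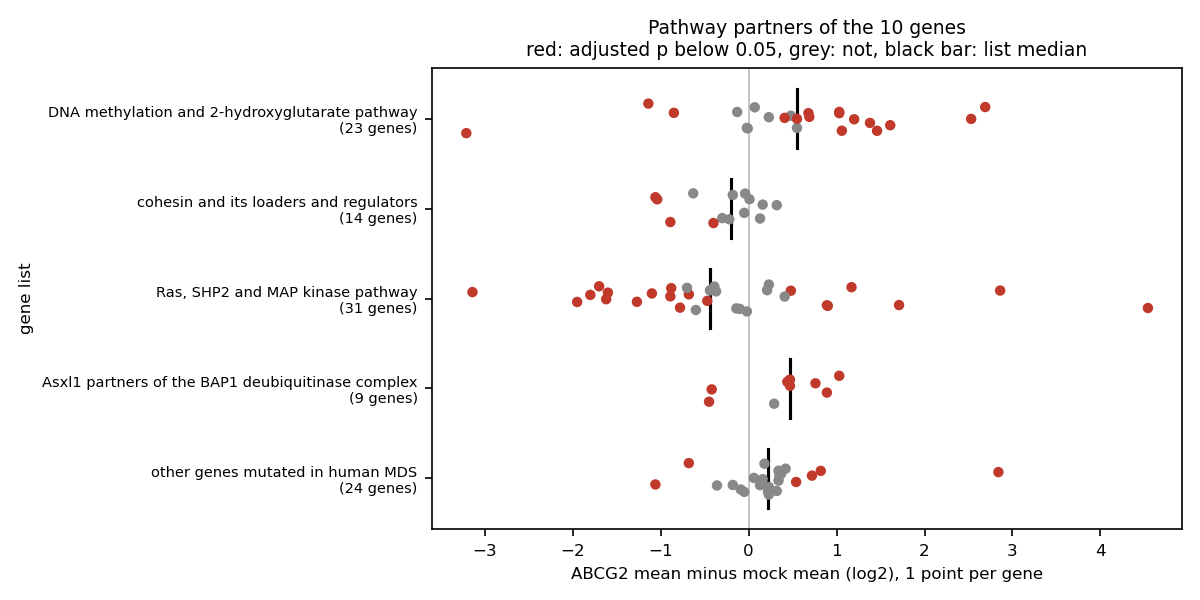
Difference between the ABCG2 and mock means (log2, horizontal axis) for each measured gene of 5 lists, 1 point per gene, red where the adjusted p was below 0.05, with a black bar at the list median. The medians run from -0.44 in the Ras list to 0.55 in the DNA methylation list.

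Markers of blood cell types differed between the ABCG2 and mock arrays. All 13 measured neutrophil genes fell, with a median of -5.66 and the largest falls in Mmp8 (-6.71 ± 0.50), Mpo (-6.68 ± 0.32) and Ms4a3 (-6.26 ± 0.32). Under quantile normalization 11 fell, S100a8 (adjusted p = 0.0962) and S100a9 (0.08) being lost, and 12 fell without mock array 2 or mock array 3. The list's median was -4.81 and -6.11 on the ABCG2 arrays and -0.30 to 0.02 on the mock arrays. All 6 measured of 8 listed monocyte genes fell, with a median of -4.04, among them F13a1 (-6.37 ± 0.13), Cd14 (-6.05 ± 0.34) and Mpeg1 (-4.36 ± 0.18). That list's median was -3.43 and -3.27 on the ABCG2 arrays and 0.91 to 1.21 on the mock arrays. Of 7 listed stem and progenitor genes 4 were measured. Flt3 and Sox4 (2.65 ± 0.26) rose and 2 did not pass. The list's medians were 1.21 and 1.19 on the ABCG2 arrays and -0.57 to -0.07 on the mock arrays. Of 11 listed B lineage genes 5 were measured and 2 rose, Il7r by 5.93 ± 0.34 and Cd79b by 3.79 ± 0.25. Blnk (0.77 ± 0.51), Ms4a1 (0.54 ± 0.58) and Ighm (-1.54 ± 0.83) did not pass. Of 7 listed T and NK genes 4 were measured. Klrd1 (5.01 ± 0.62) and Cd28 (2.58 ± 0.70) rose, Nkg7 fell by 1.53 ± 0.21 and Cd3d (-0.60 ± 0.47) did not pass. Cd28 did not pass without ABCG2 array 1 (1.89, adjusted p = 0.0894), nor Nkg7 under quantile normalization (-0.94, adjusted p = 0.057), and without mock array 1 the T and NK genes that fell numbered 2. Of 9 listed erythroid genes only 2 were measured, Klf1 (-0.60 ± 0.50) and Car2 (0.44 ± 0.47). Neither passed limma's test, with 0 at an unadjusted p below 0.05, and the rest of that list was not seen. Medians on the ABCG2 arrays were 0.49 and 0.26 for B lineage, 0.50 and -0.08 for T and NK and -0.62 and -0.08 for erythroid genes. On the mock arrays they ran from -1.41 to -0.04, from -1.95 to -0.12 and from -1.19 to 0.52. The part of these markers in the differences of Idh1, Dnmt3a, Idh2, Stag2, Rad21 and Ptpn11 was not tested. With centred values of detected probe sets, none of these markers can be said to be at 0.

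The genes whose profile over the 7 arrays lay nearest to Idh1 by Euclidean distance were Ogfrl1 (distance 0.23), Timp2 (0.33), Rab11fip5 (0.53) and Xdh (0.53). All 4 fell in ABCG2, with differences of -3.21 ± 0.14, -3.26 ± 0.20, -3.04 ± 0.20 and -3.11 ± 0.14. Timp2 encodes an inhibitor of metalloproteinases, and Xdh encodes xanthine dehydrogenase. Nearest to Dnmt3a lay Mif (0.31), the mitochondrial ribosomal protein gene Mrpl3 (0.35), Mybbp1a (0.36) and Grwd1 (0.39), which rose by 1.49 ± 0.16, 1.60 ± 0.18, 1.42 ± 0.19 and 1.77 ± 0.19. These are descriptions over 7 arrays on which the 2 ABCG2 values set most of the distance.

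The sorted EZH2-Mt fractions were compared with the mock mean without a test, since each has 1 array. Differences of 1 log2, which is 2-fold, were counted. In the GFP-negative fraction 0 of 10 genes reached it, against 4.58% of all genes. In the GFP-positive fraction 1 of 10 did, against 7.36%. Between the fractions 0 of 10 did, against 3.10%. Both contrasts with mock share the same mock arrays, as does that of ABCG2. By probe set the counts were 1 of 22 in GFP-negative (6.43% of all probe sets), 2 of 22 in GFP-positive (12.2%) and 1 of 22 between the fractions (5.13%). These counts depend on the scaling. Under quantile normalization they were 4 (18.1% of all probe sets), 3 (19.3%) and 4 (9.63%) of 22. By gene they were 1 (14.3% of all genes), 2 (14.3%) and 0 (6.90%) of 10. That method widens the mock arrays toward the ABCG2 spread, and the shares over all features grew with it. The mock arrays were whole marrow and the fractions were sorted, so sorting and EZH2-Mt cannot be told apart in a comparison with mock.

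Nf1 was the gene that reached 2-fold in the GFP-positive fraction. It read 0.66 in GFP-negative and 1.41 in GFP-positive against -0.22 to -0.10 in mock, so both fractions lay above all mock and ABCG2 arrays. The differences from the mock mean were 0.83 and 1.59, and the fractions differed by 0.76. Ptpn11, which acts on the same pathway from the other side, stood 0.05 and 0.44 above the mock mean. Idh2 as a gene differed from the mock mean by -0.43 in GFP-negative and -0.73 in GFP-positive, but its probe sets disagreed. Probe set 1453601_at read 0.04 in GFP-negative and -1.38 in GFP-positive, a difference of -1.42 between the fractions and of -1.43 between GFP-positive and mock. Probe set 1450048_a_at was the low one in GFP-negative, at -0.88, and stood at -0.06 in GFP-positive.

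Dnmt3a differed from the mock mean by -0.43 in GFP-negative and 0.05 in GFP-positive, but its probe sets disagreed in both. In GFP-positive, 1423063_at (0.61) and 1460324_at (0.68) lay above the mock range. There 1423064_at (-0.35) and 1423066_at (-0.55) lay below it and 1423065_at (-0.15) within it. The lowest Dnmt3a probe set, 1423066_at, read -1.33 in GFP-negative, a difference of -1.39 from the mock mean. In that fraction 1423063_at read 0.00, which was 0.28 over the mock mean and above every mock array. Idh1 was lower than each mock array in both fractions, with differences of -0.48 and -0.55 from the mock mean, beside -3.26 in ABCG2. Tet2 was 0.20 and 0.51 above the mock mean, and its probe set 1438781_at read 1.0 in GFP-positive against -0.19 to 0.42 in mock. Its other probe set, 1455300_at, lay within the mock range in both fractions, 0.10 above the mock mean in GFP-positive. As means over probe sets, the cohesin genes differed from the mock mean by at most 0.37: Stag2 differed by 0.06 and -0.16, Rad21 by 0.28 and 0.07, and Smc3 by 0.14 and 0.37. Single probe sets differed more, with 0.38 and 0.66 at Smc3 1450950_at, 0.62 and 0.47 at Rad21 1416162_at and 0.02 and -0.47 at Stag2 1450396_at. Asxl1 differed by 0.10 and 0.19. The medians of all genes were 0.04 and 0.06. The medians of the pathway lists in GFP-negative and GFP-positive were 0.08 and -0.10 for DNA methylation, 0.01 and 0.24 for cohesin, 0.08 and -0.04 for Ras, 0.19 and -0.04 for the BAP1 complex and 0.04 and 0.20 for the other MDS genes.

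Cell type markers also differed between the fractions and mock. The median neutrophil marker stood 0.40 (GFP-negative) and 1.28 (GFP-positive) above the mock mean, and the monocyte median stood at -1.42 and -1.20. The medians of the other lists were 0.35 and 2.04 for B lineage, 2.03 and 0.81 for T and NK, 1.22 and 2.68 for erythroid and 0.35 and 0.30 for stem and progenitor genes. The lymphoid genes that rose in ABCG2, picked out for that rise, also lay above the mock mean in GFP-negative and GFP-positive. Il7r stood 5.71 and 4.28 above it, beside 5.93 in ABCG2, and Klrd1 4.82 and 2.24, beside 5.01. Cd28 stood 2.23 and 1.15 above it, beside 2.58, and Cd79b 0.21 and 1.22, beside 3.79. The other measured lymphoid markers were mixed. Cd3d differed from the mock mean by 1.83 and 0.46, beside -0.60 in ABCG2, and Nkg7 by -0.01 and 0.30, beside -1.53. Ighm differed by -0.09 and 0.91, beside -1.54. Ms4a1 differed by 0.98 and 2.21, beside 0.54, and Blnk by 0.35 and 2.04, beside 0.77. The part of the markers in the values of Nf1 and Idh2, and that of the raised spike-in signals of these arrays, was not tested. Nor was the part of the 3' minus 5' differences, which on the GFP-positive array lay above the mock range for actin and Gapdh.

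**Figure D4:**
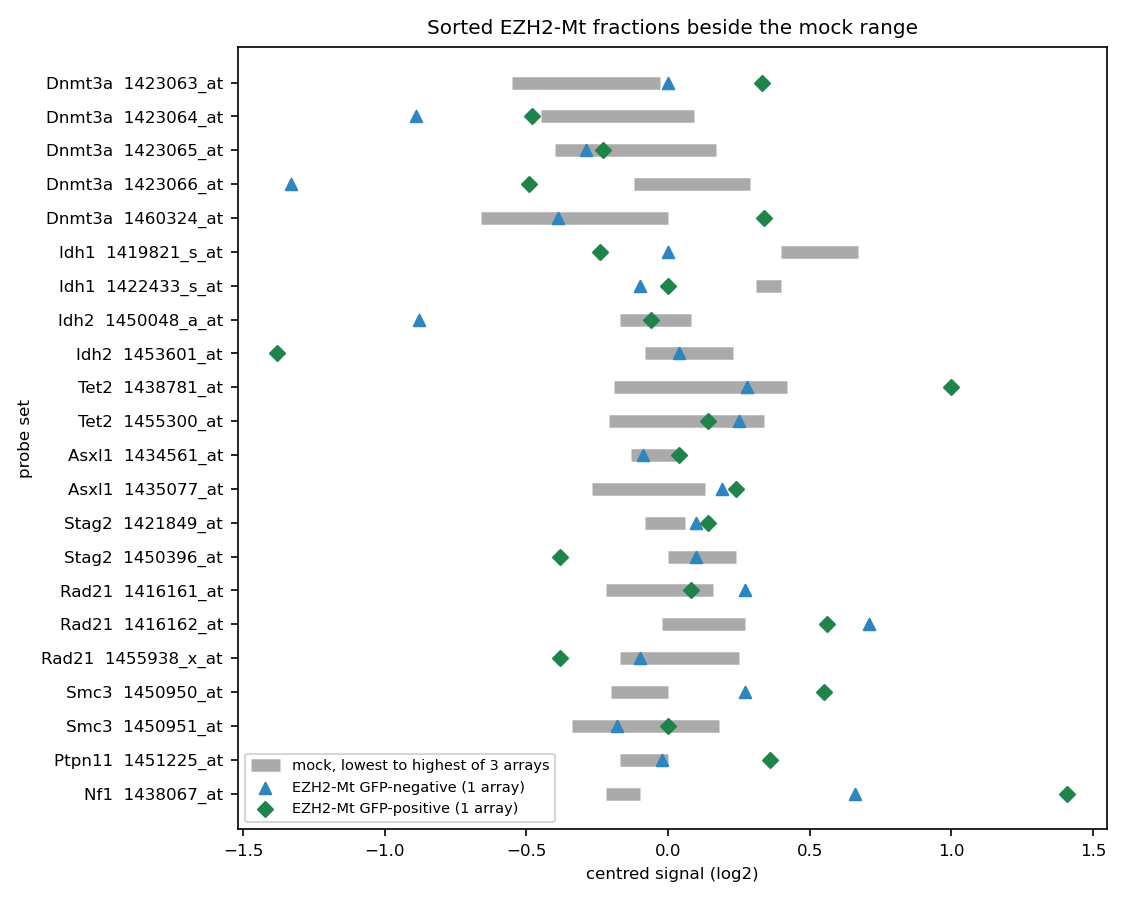
Centred signal (log2, horizontal axis) of the 22 probe sets in the GFP-negative (triangles) and GFP-positive (diamonds) EZH2-Mt fractions, 1 array each, over grey bars from the lowest to the highest of 3 mock arrays. Nf1 lies right of its bar in both fractions, and Idh2 1453601_at lies left of its bar at -1.38 in GFP-positive.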

How the data were processed

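Whole or sorted marrow RNA (5 micrograms of total RNA, per the labels' protocols) was hybridised to 7 arrays. The deposited values are logs, taken as log2. Per the file headers, the authors normalized the signals and kept probe sets whose raw signal lay between 3 and 120534 and which were called Present or Marginal in 100% of the samples. The submitters' processing notes list MAS5. Neither the scaling between arrays nor the log base is given in the sources used here. The largest range of a probe set, 8.70, exceeds what the raw limits allow for base 10 (4.60) but not for natural logs (10.6), so every fold assumes base 2.

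After removal of 54 manufacturer controls, 14229 probe sets had 1 symbol, 483 several and 1543 none. Gene IDs of 14203 matched RefSeq. ABCG2 and mock arrays were fitted with limma 3.58.1 in R 4.3.3 (lmFit, eBayes, two-sided, Benjamini-Hochberg over all genes or probe sets, adjusted p below 0.05), and the fit was tested on simulated data. Values after ± are limma's standard errors. For arrays, their number limits the precision. All members are named; of each pathway list, up to 3 genes with the largest change in each direction; of each marker list, up to 3 with the largest difference; and the 4 genes nearest to the members with the largest fall and rise. Alternatives were other scalings, array weights, robust eBayes, a replicate block, all arrays in 1 fit, medians over probe sets and each array left out. Members and lists were chosen with earlier results of these data known.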

Additional observations from a re-analysis of the deposited data

Results flagged for a closer look

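The signals below come from manufacturer controls, which no comparison of genes used, and they exceeded the level on the mock arrays. The hybridization spike-ins other than bioB (12 probe sets) had a median of 0.91 log2 on the GFP-negative and 2.14 on the GFP-positive EZH2-Mt array, against -0.03 to 0.06 on the mock arrays. The spike-in bioB (4 probe sets) had medians of 0.99 and 2.47 on those arrays, against -0.03 to 0.00 in mock, and of -3.07 and -3.20 on the ABCG2 arrays. The spike-ins of the RNA amplification (24 probe sets) had medians of 1.79 and 3.50, against 0.00 on each mock array. No group held the 4 arrays that a search for outlying arrays needs, and no contrast was available in 2 replicated settings.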

How the results depend on the processing

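Quantile normalization moved the most. Over all genes 1428 were then higher and 1452 lower in ABCG2 (2983 and 2196 as deposited). Over all probe sets the counts were 2112 and 2350 (5122 and 4112). The method was run on centred values and gives all arrays the same spread. As deposited, the ABCG2 arrays had the widest spread, so calls can be lost through the method itself. The part of that spread in the calls made on the deposited values was not tested. Of the members, 1 gene and 4 probe sets rose, in place of 3 and 7. Under the same setting, member genes 2-fold or more from mock numbered 1 in GFP-negative and 2 in GFP-positive (14.3% of all genes in each), and member probe sets 4 in GFP-negative (18.1% of all) and 4 between the fractions (9.63%). Dnmt3a (1.09 to 1.80), Idh1 (-3.41 to -2.23) and Stag2 (-1.05 to -0.64) passed in 12 of 12 alternatives, Idh2 (0.42 to 1.0) and Ptpn11 (0.52 to 0.92) in 11 and Rad21 (-0.53 to -0.05) in 6. The 12 alternatives include the fit of all 7 arrays, which returns the main values by design. They also include subtraction of array medians, which were 0.00 or 0.01. The sign turned only for differences that had not passed. These were Idh2 1453601_at (-0.02 quantile, -0.18 to 0.43 with 1 array left out), Rad21 1416161_at (-0.02 quantile, -0.07 array weights, -0.08 replicate block, -0.08 to 0.11 left out), Rad21 1455938_x_at (-0.01 quantile, 0.00 to 0.36 left out), Smc3 1450950_at (-0.03 array weights, -0.04 replicate block, -0.15 to 0.16 left out) and Asxl1 (-0.20 to 0.06 left out). The cause was not tested. With the replicate number as a block, 3 genes rose and 3 fell and 7 probe sets rose and 4 fell, Stag2 1421849_at (-0.51, adjusted p = 0.0709) being lost; no other member call changed. The labels state no pairing, so the numbers were not taken to pair mice. Same-numbered mock and ABCG2 arrays deviated from their group means together at r = 0.08 and -0.04. With 2 ABCG2 arrays their deviations mirror each other, so this check cannot decide on pairing. With 1 array left out, 3 member genes rose and 2 to 3 fell. Fitting all 7 arrays gave the main values again, since single arrays add no spread.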
